A study of Mus musculus with 4 samples.

Results

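The response described here is that of wild-type peritoneal exudate cells to lipopolysaccharide (LPS), the glycolipid of the Gram-negative outer membrane. It was taken from 1 array of unstimulated cells (0 h) and 1 array of cells after 3 h with LPS, 2 of the 4 arrays of the series. Genes were included by signal on both arrays. Some that were above background on only 1 of them are given below as lower bounds. A gene entered when at least 1 of its probes was flagged well above background on both wild-type arrays. This kept 12598 of the 22911 genes that the array's probes could be matched to. Of all 56605 probes 26156 passed, and 17950 of these were matched to a gene. Per the labels, the mice had received 4% thioglycollate, an irritant that recruits leukocytes to the peritoneal cavity, 3 days before lavage, the cells were kept in RPMI1640 with 10% serum, and the Cy3 label was made from 100 ng of total RNA. The labels call the genotype wildtype, the cells peritoneal macrophages and, in the sample titles, PEC. They give no strain, age, sex, number of animals or LPS dose. The other pair of arrays came from LysM-St18flox mice, with cells prepared and stimulated in the same way. Its values are given beside the wild-type ones because it is a separate pair that shares no array with them. The name joins LysM, the lysozyme M promoter commonly used to direct Cre recombinase to macrophages and neutrophils, with a floxed St18, a zinc finger gene. With 1 array in each group no difference has a replicate check, no p-value was computed, and every value is a difference between single arrays.

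LPS is handed by Cd14 and Ly96 (MD-2) to Toll-like receptor 4, which signals through 2 adaptor branches. The Myd88 branch activates NF-kB and MAP kinases at the plasma membrane and drives inflammatory cytokine and chemokine genes. The Ticam1 (TRIF) branch signals from endosomes through Irf3 to interferon beta, whose receptor activates Jak kinases and a complex of STAT factors with Irf9 that drives antiviral genes. NF-kB also induces its own inhibitors, and mRNA decay proteins later shorten the life of the induced transcripts.

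Values below are normalized log2 signals, the log2 of the processed spot signal minus the array's 75th percentile, so that 0 is the 75th percentile of that array. A difference is 3 h minus 0 h, a gene is represented by its brightest probe, and a gene is called higher or lower when that probe differs at least 2-fold (1 on the log2 scale). A gene's second probe is a different oligonucleotide read on the same RNA. It checks the probe and not the culture.

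All 20 macrophage markers were measured on both wild-type arrays, at normalized signals from -0.11 to 8.68 at 0 h, and their median difference was 0.0027, with 4 higher and 3 lower. Adgre1 (F4/80) was at 5.92 and 6.43 (0.51, second probe 1.25), Csf1r at 7.34 and 7.22, and Cd68 at 8.30 and 7.97. Markers of other leukocytes were present too. Of the neutrophil list 18 of 20 members with a probe were measured, among them S100a8 at 4.08 and 4.53, of the B cell list 12 of 15, and of the T and NK cell list 13 of 20, with Cd3e at -0.014 and -0.13. The summed linear signal of the measured members, relative to the 75th percentile, was 203 and 284 for neutrophil markers, 7.18 and 5.70 for B cell markers and 9.52 and 11.2 for T and NK cell markers at 0 h and 3 h. In a mixed sample of this kind fewer cells of a type and less RNA per cell cannot be told apart. Ncr1, Cd8a, Cd79a, Epx and Alas2, which mark NK, T, B, eosinophil and erythroid cells, did not pass the background filter. Other members of their lists did, among them 9 of 11 eosinophil markers and 4 of 10 erythroid markers with a probe. The part of these cells in the differences below was not tested.

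The unstimulated wild-type array stood apart from the other 3 in how probes of 1 gene related to each other. Over 4217 genes with 2 probes measured on all arrays, the gap between the probes was set against its median over the other 3 arrays. Its departure had a median of 0.145 (log2) on the stimulated wild-type array and 0.139 (unstimulated) and 0.161 (stimulated) on the LysM-St18flox arrays. On the wild-type 0 h array the median departure was 0.392. That gap departed by at least 2-fold for 14.3% of the genes on this array and for 3.84% to 4.22% on the others. Every wild-type difference uses this array, so genes whose probes agreed are described first and the LysM-St18flox value is given beside the results. Lyz2, which encodes lysozyme M and was read by 1 probe, was at 4.85 and 6.32 in wild-type cells and at 6.04 and 6.09 in LysM-St18flox cells, so that the low value was the unstimulated wild-type one. St18 itself was at -1.29 and -1.64 in wild-type cells, and its probe did not pass the background filter on the LysM-St18flox arrays.

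After 3 h with LPS, 1129 genes (8.96%) lay 2-fold or more above and 1483 (11.8%) 2-fold or more below their unstimulated signal. These shares of all genes are the comparison for the counts of list members below. Among these genes, all measured on both arrays, the high side reached further. A gap of 4-fold or more was seen for 411 genes on the high side and 229 on the low side, 16-fold or more for 89 and 8, and 32-fold or more for 40 and 0. Genes above background on 1 array only are outside these counts. Their lower bounds passed 32-fold on either side, with Il6 at least 571-fold higher and Usp2 at least 36.5-fold lower. Over all 12598 genes the median difference was -0.12, and the 5th and 95th percentiles were -1.46 and 1.5. Near the threshold, 137 genes lay within 0.1 above a log2 difference of 1 and 153 within 0.1 below it, and on the low side 232 lay just past -1 and 326 just short of it.

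Of the 4293 genes with 2 measured probes, both probes were at least 2-fold higher for 245 (5.71%) and at least 2-fold lower for 142 (3.31%). Read from the genes past 2-fold by their brightest probe, the second probe was past 2-fold on the same side in 245 of 349 higher genes (70.2%) and in 142 of 360 lower genes (39.4%). It had the same sign but was under 2-fold for 81 higher and 169 lower genes, and the opposite sign for 23 and 49. Taking the second probe of each gene as the measurement gave 585 higher and 374 lower genes, or 61.0% higher among those past 2-fold, against 49.2% with the brightest probe of the same 4293 genes (349 higher and 360 lower). Over all 12598 genes the brightest probe gave 43.2%. Which side held more genes thus differed between the probes and between the gene sets.

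**Figure D1:**
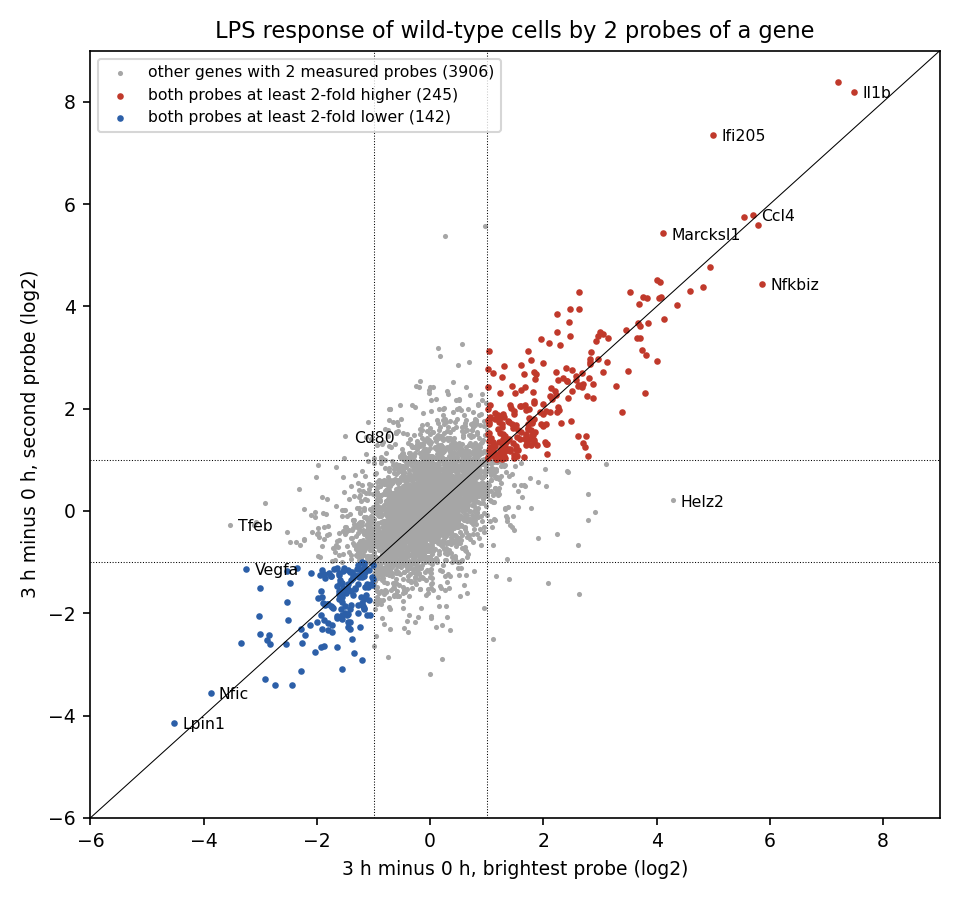
Difference between 3 h and 0 h in wild-type cells (log2) by the brightest probe (x axis) and the second probe (y axis) of each of the 4293 genes with 2 measured probes. Dotted lines mark 2-fold and the solid line equal values. The 245 red genes are at least 2-fold higher and the 142 blue genes at least 2-fold lower by both, and grey points such as Helz2 and Tfeb were past 2-fold by 1 probe only.

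Il1b, which encodes the pyrogenic cytokine interleukin-1 beta, had the largest difference on which a pair of probes agreed. Its normalized signal was 0.47 at 0 h and 7.96 at 3 h by the brightest probe, a 179.7-fold difference, and -1.34 and 6.85 by the second, 293-fold. Both wild-type signals lay close to those of LysM-St18flox cells, 0.25 and 7.98. Rsad2, which encodes the antiviral enzyme viperin, followed at 0.039 and 7.24 (147-fold, and 333-fold by the second probe). The chemokine gene Ccl4 was at 2.73 and 8.43 (51.8-fold, second probe 55.2-fold), and Oasl1, a 2'-5' oligoadenylate synthetase-like gene, at 2.32 and 8.10 (55.1-fold, second probe 48.1-fold). Tnf, which encodes tumour necrosis factor, was at 1.38 and 6.92 (46.4-fold, second probe 53.7-fold). These 5 genes were each at least 45-fold higher by every probe read.

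**Figure D2:**
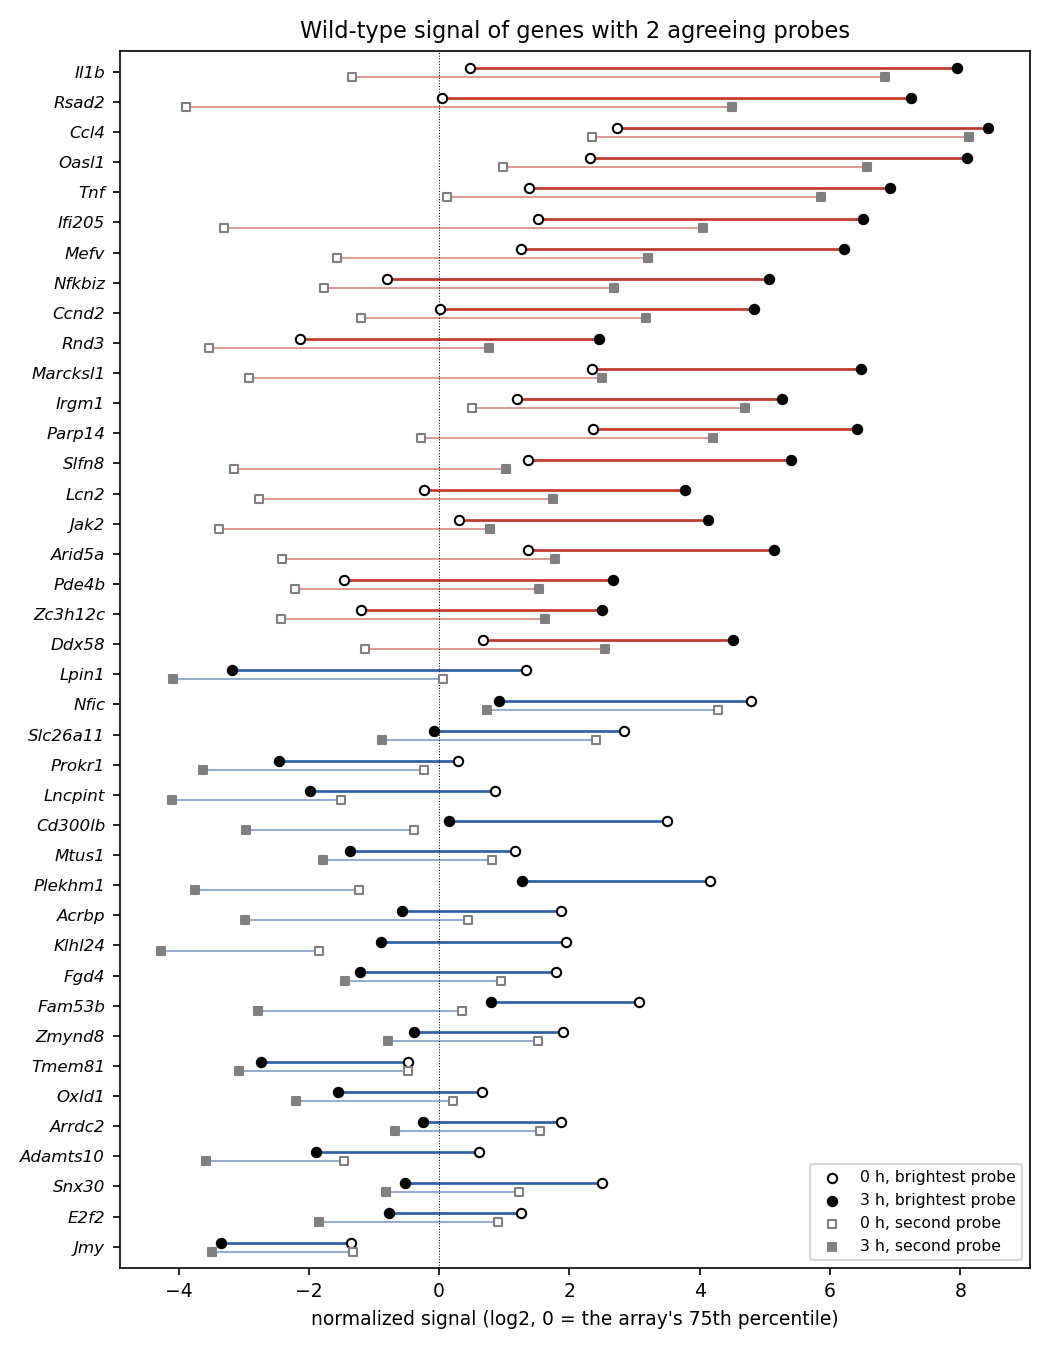
Normalized signal (log2, x axis) at 0 h (open) and 3 h (filled) on the wild-type arrays for the 20 higher (red lines) and 20 lower (blue lines) genes with the largest differences shared by 2 probes. Circles are the brightest probe and squares the second, and in each gene the pair of lines points the same way, from Il1b (7.49 and 8.19) at the top to Jmy (-2.0 and -2.16) at the bottom.

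The next genes of this ranking spanned several functions. Mefv, the pyrin inflammasome sensor gene, was at 1.26 and 6.21 (30.8-fold), and Nfkbiz, which encodes the nuclear IkB protein needed for secondary NF-kB targets, at -0.80 and 5.06 (58.3-fold, second probe 21.7-fold). Ccnd2, a G1 cyclin gene, was 28.1-fold higher (20.9-fold by the second probe). The atypical small GTPase gene Rnd3 was 24.1-fold higher and Marcksl1, which encodes an actin-binding kinase substrate, 17.4-fold. Lcn2, the iron-siderophore binding protein of myeloid cells, was at -0.23 and 3.77 (16-fold). Its signal differed between the genotypes at 0 h, where LysM-St18flox cells had -2.60, and it is also a neutrophil gene. Arid5a, which encodes an RNA-binding protein that stabilizes Il6 mRNA, was 13.6-fold higher. Pde4b, the cyclic AMP phosphodiesterase of monocytes, was 17.5-fold higher and the ribonuclease gene Zc3h12c 13-fold. The interferon-induced genes of the 20 are described with their pathway below. In LysM-St18flox cells the 20 genes had differences from 3.21 (Pde4b) to 7.74 (Il1b), all in the same direction.

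Of 9 measured CXC chemokine genes, 6 were higher and 1 lower (median 3.06), and of 12 measured CC chemokine genes 7 were higher and 0 lower (median 1.82). Cxcl10, the interferon-induced chemokine of activated T cells, was at -3.63 at 0 h and 8.06 at 3 h, 3315-fold apart on its single probe, the largest difference of any measured gene, and its log2 difference of 11.70 was 10.56 with normexp background correction. The neutrophil chemokine genes Cxcl3 (8.93), Cxcl1 (8.03) and Cxcl2 (7.02) came next in log2 difference. Cxcl16, the transmembrane ligand of Cxcr6, was higher by both probes (8.34-fold and 6.58-fold). Platelet-type chemokine genes of the same family stayed within 2-fold, with Pf4 at -0.17 and Ppbp at -0.18, and Cxcl14 was 2.07-fold lower. Among CC genes Ccl5 had 7.59, Ccl3 4.71, the monocyte chemokine genes Ccl7 3.90 and Ccl2 2.42, and Ccl17 3.71. Ccl6 (-0.066), Ccl9 (0.56) and the eosinophil chemokine gene Ccl24 (0.45) were within 2-fold, as they were in LysM-St18flox cells (0.12, 0.99 and 0.44).

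Several cytokine genes were above background only at 3 h, so that the difference is a lower bound. The bound divides the signal at 3 h by the dim probe's reading at 0 h, or by the lowest signal that was well above background on that array where this is higher. Il6, the acute phase cytokine gene, had bounds of 571-fold by its brightest probe and 265-fold by the other. Ccl12 was at least 132-fold higher, the interleukin-10 gene Il10 at least 128.4-fold, interferon beta (Ifnb1) at least 62.0-fold, the interleukin-12 subunit genes Il12b and Il12a at least 46.1-fold and 26.6-fold, and Il19 at least 27.1-fold. The growth factor genes Csf2 and Csf3 had bounds of 15.1-fold and 4.69-fold. Over all genes, 369 had a bound of at least 2-fold on the high side and 415 on the low side, but only 11 and 2 had 2 probes in that state. Besides Il6 and Il19 these included Cav1, the caveolin-1 gene (at least 20.7-fold higher, 9.84-fold by the second probe), the interferon-induced Ifi202b (at least 13.9-fold) and Skint4 (at least 8.23-fold). Skint4 was not well above background on either LysM-St18flox array.

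Of the interleukin-1 family, Il1a stood at 7.34 beside Il1b. The receptor antagonist gene Il1rn was 3.46-fold higher (3.29-fold by the second probe), and Il18 was 4.13-fold higher. The gene of its decoy, Il18bp, had log2 differences of 1.20 and 0.98 by its brightest and second probe. Of the receptors, Il1r1 (0.68), the decoy Il1r2 (-0.061), Il1rl1 (0.47) and Sigirr (-0.42) were within 2-fold. Il15 was at 1.78 and 5.42 (12.5-fold, second probe 10.4-fold), and Csf1, the macrophage growth factor gene, at 1.45 and 3.66 (4.64-fold, second probe 6.60-fold). Both subunits of interleukin-27 were higher, Il27 by 2.79 and Ebi3 by 1.88. Il16, a constitutive chemoattractant gene, was the lower member, at 0.83 and -1.64 (5.57-fold).

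In the TNF superfamily 6 of 24 measured genes were higher and 2 lower. Tnfsf15 was 162-fold higher and Tnfsf9 (4-1BB ligand) 99.5-fold, each on 1 probe, and the costimulatory receptor gene Cd40 11.2-fold. The death receptor gene Fas was 5.26-fold higher and 6.96-fold by its second probe. The TNF receptors differed from each other: Tnfrsf1b was 6.25-fold higher while Tnfrsf1a was at 4.38 and 4.63. Tnfrsf12a and Tnfrsf26 were just past 2-fold lower (-1.02 and -1.0).

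Among the sensors of LPS and the adaptors, 12 of 32 measured genes were higher and 3 lower. Cd14 was at 5.97 and 7.36 (2.62-fold, second probe 3.35-fold). Tlr2, the lipopeptide receptor gene, was 7.95-fold higher and its partner Tlr1 3.72-fold (2.44-fold by the second probe), while the LPS receptor gene Tlr4 (-0.48), its partner Ly96 (-0.68) and Tlr9 (-0.61) were within 2-fold. The adaptor gene Myd88 was 3.52-fold higher and Ticam1 was at -0.095. Map3k8, the kinase that links NF-kB1 p105 to ERK, was 6.50-fold higher. Irak4 was 3.34-fold lower in wild-type cells and at -0.35 in LysM-St18flox cells.

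NF-kB genes were mostly higher, 10 of 15 with a median of 2.10 against -0.12 over all genes. The precursor subunit gene Nfkb2 was at 3.09 and 6.05 (7.80-fold, second probe 7.82-fold), Relb at 2.10 and 4.24 (4.41-fold, second probe 5.32-fold) and the inhibitor gene Nfkbib at 2.68 and 4.78 (4.29-fold, second probe 9.81-fold). All 5 subunit genes were past 2-fold, with Nfkb1 at 3.95, Rel at 2.09 and Rela at 1.90. Of the IkB genes Nfkbia had 3.10, Nfkbie 3.90 and Bcl3 3.93, while Nfkbid was at -0.035. The kinase genes did not share this. Ikbkb (0.45) and Chuk (0.43) were within 2-fold, and the lower values of Map3k14 (-1.91) and Ikbkg (-1.02) had second probes at 0.27 and -0.0074.

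Feedback inhibitors made up 18 higher and 4 lower of 35 measured genes. Over the 17 with 2 probes the median was 0.54 by the brightest and 0.17 by the second, with 8 higher and 3 lower by the second. The cytokine signalling inhibitors Cish (267-fold), Socs3 (77.9-fold) and Socs1 (55.2-fold) were read by 1 probe each, and Socs2 by 2 (2.78-fold and 2.13-fold). Socs6 differed the other way, 2.04-fold lower and 2.74-fold by the second probe, and Socs4 (0.50), Socs5 (0.43) and Socs7 (0.63) were within 2-fold. The ubiquitin editors of NF-kB signalling Tnfaip3 (A20) and Tnip1 were 15.8-fold and 14.1-fold higher, with 8.25-fold by the second probe of Tnip1, and Irak3, an inhibitory kinase-like gene, 2.91-fold (2.72-fold). The mRNA decay genes split. Zc3h12a (regnase-1) was 8.77-fold higher and Zfp36 (tristetraprolin) 2.22-fold, whereas Zfp36l2 was at 5.76 and 3.06 (6.50-fold lower). Zfp36l1 had log2 differences of -0.92 and -1.31 by its brightest and second probe. The roquin genes Rc3h1 (0.30) and Rc3h2 (-0.14) were within 2-fold. LysM-St18flox cells showed the same split, with 2.60 for Zc3h12a, 2.03 for Zfp36 and -2.30 for Zfp36l2. Tnfaip8l2, an inhibitor gene of resting myeloid cells, was 4.63-fold lower.

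Genes that respond within minutes of stimulation were not uniformly high at 3 h. The AP-1 genes Fos (3.08 and 0.75, 5.03-fold lower) and Jun (5.22 and 2.47, 6.73-fold lower) lay below their unstimulated signal, while Junb (3.04-fold, second probe 7.21-fold), Batf (5.66-fold), Batf2 (15.0-fold) and Maff (4.07-fold) were higher. The repressor gene Nfil3 was 4.68-fold higher and 4.80-fold by the second probe. Of 33 immediate-early and growth-response genes 8 were higher and 8 lower. Rnd1 (7.89), Rnd3 (4.59) and Errfi1, a receptor tyrosine kinase inhibitor (4.55), were the highest, and the regulator of G protein signalling Rgs2 (-3.20), Ier5l (-2.69) and Plk3 (-2.10) the lowest. The early growth response genes Egr1 (-0.96) and Egr2 (-1.13), Nr4a1 (0.93) and Myc (-0.22) ranged from just past 2-fold lower to just under 2-fold higher. Fos and Jun were also lower in LysM-St18flox cells (-1.79 and -2.35).

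MAP kinase phosphatase genes diverged within their family. Dusp2 was 14.1-fold higher, Dusp16 6.31-fold, Dusp14 6.22-fold and Dusp1 4.13-fold. The ERK phosphatase gene Dusp6 was at 2.74 and 1.26, 2.79-fold lower. Spred1, an inhibitor of Ras signalling, was 4.73-fold higher (11.4-fold by the second probe), while Spred2 had -0.81 and -1.62 in wild-type cells and 0.25 in LysM-St18flox cells.

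Antiviral genes of the interferon branch were mostly higher. Of 62 measured members 51 (82.3%) were higher and 1 lower, against 8.96% and 11.8% of all genes, with a median difference of 2.80, and 14 of the 20 with 2 measured probes were higher by both. Ifit1 was at -3.42 and 6.31 (847-fold). Ifi205, of the DNA-sensing HIN200 family, was at 1.51 and 6.51 (32-fold, second probe 164-fold). Ddx58, which encodes the RNA sensor RIG-I, was 14.3-fold higher (12.8-fold), its relative Ifih1 (MDA5) 28.9-fold, and the cytosolic nucleic acid sensor gene Zbp1 8.86-fold (10.4-fold). Parp14, an ADP-ribosyltransferase gene, was 16.6-fold higher and Slfn8, of the schlafen family, 16.5-fold. The exonuclease gene Isg20 was 16.1-fold higher (7.65-fold), and Isg15, the ubiquitin-like modifier, 67.8-fold with its protease Usp18 at 34.8-fold.

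Within the oligoadenylate synthetase family Oas3 (3.34), Oas2 (3.19), Oasl2 (3.07), Oas1g (2.48) and Oas1a (2.40) were past 2-fold and Oas1c (0.79) was not. Probes for such near-identical copies, and for the Slfn and Phf11 families, may read more than one member. Helz2 shows the probe question, with 4.28 by its brightest probe and 0.21 by the second, and 3.87 in LysM-St18flox cells by the brightest. Of the list's other members, Ifitm3 (-0.10), Samhd1 (0.35) and Ifi27 (0.41) were within 2-fold.

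The interferon-inducible GTPases, which attack pathogen vacuoles, had 10 of 12 measured members higher and a median of 4.19. Irgm1 was at 1.19 and 5.26 (16.8-fold, second probe 18.1-fold). Gbp5 was 574-fold higher, Tgtp2 82.3-fold, Igtp 23.8-fold and Gbp2 16.9-fold, while Gbp8 (0.76) and Gbp10 (0.38) were within 2-fold. Iigp1 and Gbp6 were above background only at 3 h, with bounds of 33.9-fold and 18.1-fold.

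Upstream of these, Jak2 was at 0.30 and 4.13 (14.2-fold, second probe 17.8-fold) while Jak1 (0.50) and Jak3 (0.34) were within 2-fold. Of the interferon-activated complex, Stat2 was 6.98-fold higher and Irf9 3.38-fold (3.29-fold by the second probe). Irf7, which amplifies interferon production, was 8.28-fold higher (11-fold) and Irf1 14.8-fold, while Irf3 was at -0.14. Irf8 was 3.04-fold lower in wild-type cells and at 0.059 in LysM-St18flox cells.

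The promoters of Cxcl10, Ifit1 and Rsad2 are shown because they hold letters of the binding sites used by the interferon branch. Sequences are RefSeq windows of build GRCm38.p6 from 250 bases before to 50 after the gene start, 5' to 3' on the gene's strand. Capitals mark every match, on either strand, to an NF-kB type motif (GGGNNNNNCC) or to an interferon-stimulated response element (ISRE) type motif (TTTCNNTTTC). Cxcl10 lies at chr5:92348840-92349139 (minus strand), Ifit1 at chr19:34640639-34640938 (plus strand) and Rsad2 at chr12:26456403-26456702 (minus strand).
Cxcl10: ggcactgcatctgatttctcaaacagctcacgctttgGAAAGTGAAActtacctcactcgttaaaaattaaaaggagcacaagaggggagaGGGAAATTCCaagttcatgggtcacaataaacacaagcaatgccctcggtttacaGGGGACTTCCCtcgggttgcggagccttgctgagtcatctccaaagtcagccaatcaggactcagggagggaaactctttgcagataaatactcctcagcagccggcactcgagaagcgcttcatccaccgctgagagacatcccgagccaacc
Ifit1: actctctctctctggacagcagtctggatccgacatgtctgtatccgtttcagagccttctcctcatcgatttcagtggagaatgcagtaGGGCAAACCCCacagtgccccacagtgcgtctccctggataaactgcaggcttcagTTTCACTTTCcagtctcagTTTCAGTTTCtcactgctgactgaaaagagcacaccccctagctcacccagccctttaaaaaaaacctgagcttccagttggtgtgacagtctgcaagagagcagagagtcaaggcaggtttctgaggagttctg
Rsad2: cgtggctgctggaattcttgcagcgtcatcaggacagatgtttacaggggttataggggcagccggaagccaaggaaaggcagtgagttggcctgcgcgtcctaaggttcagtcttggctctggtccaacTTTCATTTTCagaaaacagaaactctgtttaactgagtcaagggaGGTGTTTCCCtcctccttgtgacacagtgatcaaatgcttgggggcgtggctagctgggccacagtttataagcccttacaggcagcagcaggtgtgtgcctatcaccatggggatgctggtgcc
The Cxcl10 window holds an ISRE type match, GAAAGTGAAA on the opposite strand, and NF-kB type matches GGGAAATTCC and, overlapping, GGGGACTTCC and GGGACTTCCC. That of Ifit1 holds ISRE type matches TTTCACTTTC and TTTCAGTTTC, and that of Rsad2 TTTCATTTTC. The loose NF-kB type motif also matched GGGCAAACCC in the Ifit1 window and GGTGTTTCCC in the Rsad2 window.

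Over all measured genes 3.21% of 12732 promoter windows held the ISRE type motif. Of the antiviral list 27 of 59 windows did (45.8%), of genes at least 16-fold higher 22 of 86 (25.6%), of genes higher by 2 probes 7.17% of 279 and of genes lower by 2 probes 1.85% of 162. The NF-kB type motif is loose, and it was found in 64.5% of the windows of genes higher by 2 probes, 65.4% of those lower and 65.4% of all measured. An AP-1 type motif (TGANTCA) was found in 15.1% of the windows of genes at least 16-fold higher and 5.69% of all measured, and TATAAA in 25.6% and 8.04%. These shares describe letters within 300 bases, windows of 1 gene can overlap, and a match is not a bound site. The Il1b window holds TATAAA and no NF-kB type or ISRE type match, so its line has no capitals. It is shown for the largest difference on which 2 probes agreed, at chr2:129371090-129371389 (minus strand).
Il1b: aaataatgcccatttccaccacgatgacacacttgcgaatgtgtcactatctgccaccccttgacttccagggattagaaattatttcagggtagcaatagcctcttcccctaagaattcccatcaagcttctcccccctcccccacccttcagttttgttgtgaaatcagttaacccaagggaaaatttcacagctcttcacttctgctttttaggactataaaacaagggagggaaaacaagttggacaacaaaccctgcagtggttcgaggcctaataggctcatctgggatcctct

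Effector genes of activated macrophages were higher in 14 of 35 measured cases and lower in 0. Ptgs2, the inducible prostaglandin synthase gene, was at -2.21 and 4.88 (136-fold), Nos2, inducible nitric oxide synthase, at -2.87 and 2.63 (45.2-fold), and Acod1, which makes itaconate, at 1.59 and 8.15 (94.5-fold). Ch25h, which makes 25-hydroxycholesterol, had 7.39. Genes that feed these enzymes were higher as well: the arginine transporter Slc7a2 (4.67), the cofactor enzyme Gch1 (2.39) and the polyamine enzyme Odc1 (5.07-fold, second probe 6.08-fold). Arg2 was 6.97-fold higher, while Arg1 (-0.045), Alox5 (-0.17) and Ptgs1 (-0.35) were within 2-fold. For the prostaglandin E synthase gene Ptges the probes disagreed, with 0.26 by the brightest and 5.39 by the second. Of the superoxide-producing oxidase, Cybb was 2.21-fold higher by the brightest probe with 0.44 (log2) by the second, and Ncf1 (-0.13) and Cyba (-0.10) were within 2-fold. Of 29 measured NRF2 antioxidant genes 5 (17.2%) were higher and 2 (6.9%) lower, against 8.96% and 11.8% of all genes. The higher ones included the cystine transporter Slc7a11 (5.02), mitochondrial Sod2 (2.96) and Txnrd1 (4.78-fold, second probe 5.89-fold), whereas Hmox1 (-0.44), Gclm (-0.65) and Nfe2l2 (0.14) were within 2-fold and Osgin1 was 7.86-fold lower.

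Of 26 measured metal handling genes 6 were higher and 2 lower, with a median of 0.10. The zinc importer gene Slc39a14 was 9.69-fold higher, Slc11a2, which imports iron, 4.08-fold (2.54-fold), and the metallothionein genes Mt2 8.80-fold and Mt1 2.03-fold (6.87-fold). The zinc exporter genes went both ways, as Slc30a4 was 3.24-fold higher and Slc30a1 was at 1.86 and -0.93 (6.93-fold lower), and the iron exporter gene Slc40a1 (ferroportin) 2.36-fold lower. In LysM-St18flox cells Slc30a1 differed by -2.91 and Slc40a1 by -0.55.

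Inflammasome and lytic cell death genes were higher in 10 and lower in 2 of 26 cases. Beside Mefv the higher ones included Nlrp3 (2.54), the receptor genes Nod2 (4.36) and Nod1 (2.59), their kinase Ripk2 (3.15), and the caspase genes Casp4 (3.82) and Casp1 (1.54). The pore-forming gasdermin gene Gsdmd was 2.05-fold higher and 8.75-fold by the second probe, and the necroptosis effector gene Mlkl 4.74-fold. The adaptor gene Pycard (-0.11), Aim2 (0.55) and Nlrc4 (0.21) were within 2-fold. Naip1, a sensor gene of the NAIP family also counted among resident peritoneal macrophage markers, was at -0.37 and -2.85 (5.57-fold lower, 2.66-fold by the second probe). Over the 9 members of this list with 2 probes the median was 0.55 by the brightest and -0.26 by the second. By the second probe 3 of them were higher and 3 lower. Among survival genes Cflar was 6.15-fold higher (19.5-fold) and Birc3 5.03-fold, and the pro-apoptotic gene Bmf was 12-fold lower on 1 measured probe.

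Surface genes for interaction with T cells and vessels were partly higher. Cd274 (PD-L1) was 10.8-fold higher, Cd83 11.5-fold and Icosl 12.8-fold. Cd86 had log2 differences of 0.35 and 0.82 by its brightest and second probe, and Cd80 had opposite signs by its probes (-1.5 and 1.46). Icam1, the ligand of leukocyte integrins, was at -3.09 and 3.22 (79.3-fold), and Vcam1 was 84.3-fold higher, whereas the integrin genes Itgam (-0.65), Itgb2 (-0.63) and Itgax (-0.26) were within 2-fold. Of the antigen presentation genes, class I members were higher in 9 of 22 cases, with Tap1 6.18-fold (15.4-fold) and the transactivator gene Nlrc5 6.80-fold (4.73-fold). Class II genes were higher in 0 of 14 cases. Their transactivator gene Ciita had log2 differences of -1.12 and -0.50 by its brightest and second probe. Of 21 measured coagulation and plasminogen genes 5 were higher and 1 lower. The higher ones included tissue factor F3 (2.78), the plasminogen activator gene Plat (3.53) and its inhibitor gene Serpinb2 (4.46). The anticoagulant receptor gene Thbd was at 2.18 and -1.37 (11.7-fold lower). Complement factor B (Cfb) was 7.03-fold higher (7.86-fold) and C3 2.47-fold (2.12-fold), and the C1q genes C1qa (-0.038), C1qb (0.28) and C1qc (-0.35) were within 2-fold.

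G protein-coupled receptor genes lay on both sides, 12 of 38 higher and 8 lower. The formyl peptide receptor genes Fpr1 (16-fold) and Fpr2 (13.1-fold, second probe 10.4-fold), the fatty acid receptor gene Gpr84 (37.7-fold), the adenosine receptor genes Adora2a (13.1-fold) and Adora2b (13.2-fold) and the platelet-activating factor receptor gene Ptafr (3.29-fold, second probe 3.08-fold) were higher. The lysophosphatidic acid receptor gene Lpar6 was at 4.10 and -0.28 (20.7-fold lower), Gpr146 at 2.78 and -0.99 (13.7-fold lower), P2ry1 at 0.76 and -2.29 (8.28-fold lower) and S1pr1 at 1.43 and -0.72 (4.42-fold lower). Of 14 measured chemokine receptor genes 3 were higher and 5 lower, with a median of 0.016. Cx3cr1 was at 1.69 and -0.042 (3.31-fold lower, 5.15-fold by the second probe), Ccr2 2.86-fold lower and Cxcr4 at 1.96 and -1.40 (10.3-fold lower). Ccr7, which guides cells to lymph nodes, was 3.86-fold higher (3.25-fold), with 0.68 in LysM-St18flox cells, and the atypical receptor gene Ccrl2 11.5-fold.

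**Figure D3:**
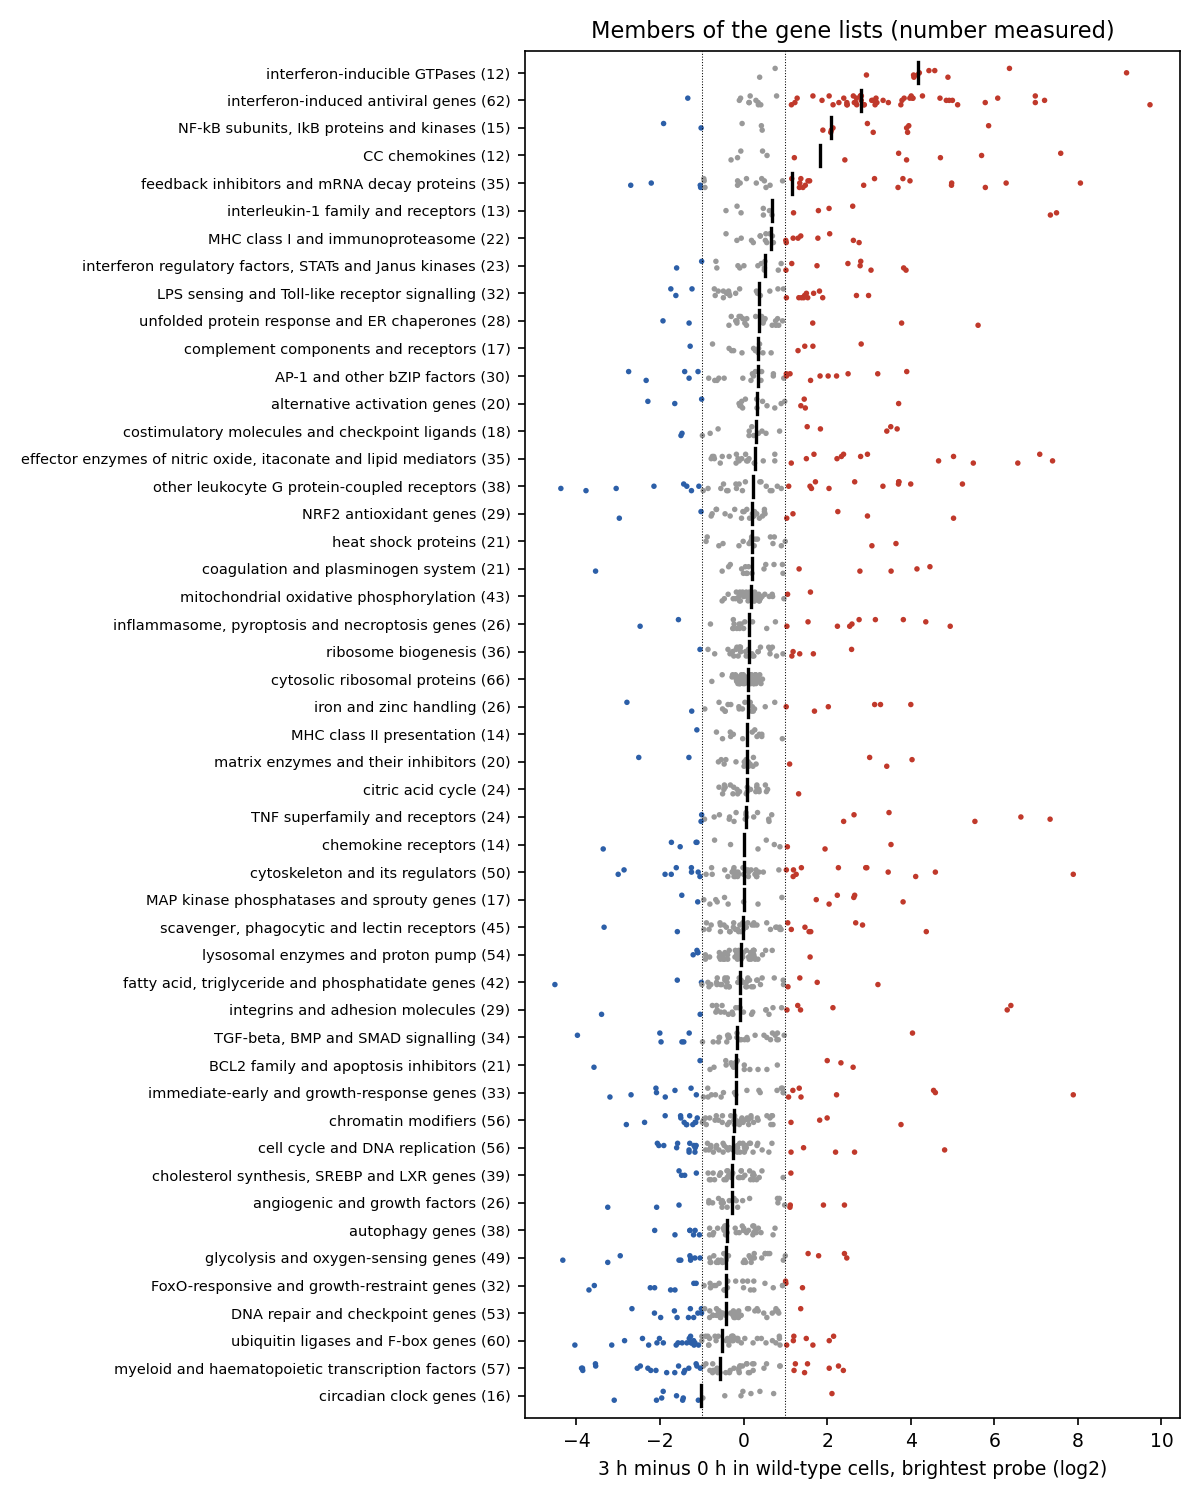
Difference between 3 h and 0 h (log2, x axis) of every measured member of the gene lists with at least 12 measured members in wild-type cells, by the brightest probe. Black bars are medians, red and blue points are past 2-fold, and the interferon-inducible GTPases (4.19) and antiviral genes (2.80) lie at the top and the circadian clock genes (-1.03) at the bottom.

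On the low side, Lpin1 had the largest difference on which 2 probes agreed. It encodes lipin-1, a phosphatidate phosphatase of triglyceride synthesis and a transcriptional coactivator, and was at 1.34 and -3.18 by the brightest probe (22.9-fold lower) and at 0.054 and -4.09 by the second (17.7-fold lower). Both LysM-St18flox arrays gave nearby values, 1.03 and -2.66. Of its relatives Lpin2 was at 0.065 and Lpin3 at -1.59. Nfic, a nuclear factor I transcription factor gene, was at 4.79 and 0.91 (14.7-fold lower, second probe 11.8-fold), and its relatives Nfia (-0.089) and Nfix (0.21) were within 2-fold. Slc26a11, a sulfate and chloride transporter gene, was 7.55-fold lower (9.75-fold), the prokineticin receptor gene Prokr1 6.71-fold (10.5-fold), and the long non-coding RNA Lncpint 7.10-fold (6.05-fold).

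Other genes lower by 2 probes act on membranes, the cytoskeleton and the cell cycle. Cd300lb, an activating receptor gene of myeloid cells, was at 3.49 and 0.16 (10.1-fold lower), Plekhm1, which tethers vesicles to lysosomes, at 4.16 and 1.28 (7.36-fold lower) and Fgd4, an exchange factor for Cdc42, at 1.79 and -1.21 (8.01-fold lower). The sorting nexin gene Snx30 was 8.17-fold lower, the arrestin-domain gene Arrdc2 4.37-fold, the E2F factor gene E2f2 4.08-fold, the chromatin reader gene Zmynd8 4.84-fold, the metalloproteinase gene Adamts10 5.69-fold and Jmy, a p53 cofactor and actin nucleator, 4.01-fold. Klhl24, a ubiquitin ligase adaptor gene, was 7.20-fold lower. For Mtus1, Acrbp, Fam53b and Oxld1 the brightest probe gave -2.54, -2.44, -2.28 and -2.21. In LysM-St18flox cells 19 of these 20 genes were past 2-fold lower too. Tmem81 was the exception, at -0.47 and -2.73 in wild-type cells (4.79-fold lower, second probe 6.01-fold) and at 0.36 by the brightest and -1.51 by the second probe in LysM-St18flox cells. With both probes measured only at 0 h, the deubiquitinase gene Usp2, a clock-controlled gene, was lower with bounds of 36.5-fold and 28-fold, and Fam214a with bounds of 27.8-fold and 3.34-fold.

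Circadian clock genes were the list with the lowest median, -1.03 over 16 measured members, of which 8 were lower and 1 higher. The clock couples an activator pair (Arntl and Clock) to repressors of the Per and Cry families and to nuclear receptors, and drives output factors of the PAR bZIP family. Arntl (BMAL1) was at 0.83 and -0.78 (3.04-fold lower, second probe 2.38-fold). Its partner Clock had log2 differences of only -0.017 and -0.059 by its brightest and second probe. Of the repressors, Per1 was at 2.34 and -0.75 (8.55-fold lower) and Per2 at -0.80 and -2.76 (3.89-fold lower), while Cry1 (-0.062) and Cry2 (0.72) were within 2-fold. The nuclear receptor gene Nr1d2 was 2.72-fold lower (2.21-fold), and Nr1d1, above background only at 0 h, at least 5.50-fold. The output genes Dbp (3.79-fold lower, second probe 6.33-fold) and Tef (2.75-fold lower, second probe 4.51-fold) were lower by both probes, and Hlf had a bound of 3.12-fold. Bhlhe40 was 4.24-fold lower, and Bhlhe41 had log2 differences of -0.97 and -1.35 by its brightest and second probe.

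Timeless was the higher one of the measured clock list members, at -1.40 and 0.71 (4.33-fold, second probe 3.83-fold). In mammals it acts chiefly in DNA replication. Of the members above background on 1 array only, 1 had a bound of at least 2-fold on the high side and 5 on the low side. Either probe gave nearly the same median for this list. Over its 11 members with 2 measured probes the median was -0.97 by the brightest and -0.99 by the second, against -0.058 and 0.058 over all genes with 2 probes. In LysM-St18flox cells 8 of 15 measured members were lower and 1 higher, with a median of -1.03. The labels give no collection times. The E-box, CACGTG, which the activator pair binds, was found in 5 of 21 windows of these genes (23.8%) and in 9.77% of those of all measured genes.

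Myeloid and other haematopoietic transcription factor genes were lower in 19 (33.3%) and higher in 7 (12.3%) of 57 measured cases. Over all genes those shares were 11.8% and 8.96%. The median of these factors was -0.56. Cebpa, which specifies granulocyte and macrophage progenitors, was at 4.05 and 0.20 (14.5-fold lower), on 1 probe. Lyl1 (14.4-fold lower), the nuclear receptor genes Pparg (4.89-fold lower) and Ppard (5.54-fold lower), Hhex (5.84-fold lower), Maf (3.58-fold lower) and Klf4 (3.13-fold lower) also had 1 measured probe. In LysM-St18flox cells Cebpa (-4.10), Lyl1 (-3.46) and Pparg (-1.99) were lower by similar amounts, and Hhex (-1.07) and Maf (-0.70) by less.

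With a second probe the picture for these factors was mixed. Lmo2 was lower by both (-1.12 and -1.43) and Mef2a and Mef2c were below 0 by both (-0.96 and -1.5, -0.90 and -1.76). Tfeb, a regulator of lysosomal genes, had -3.54 and -0.27, Runx3 -2.22 and -0.55, Ikzf3 -2.10 and -0.086, and Rxra -1.56 and -0.10. Over the 25 factors with 2 measured probes the median was -0.62 by the brightest and -0.08 by the second. On the high side Ets2 was 5.23-fold higher, Etv3 4.83-fold, Ikzf1 2.89-fold (2.28-fold) and the glucocorticoid receptor gene Nr3c1 2.36-fold (2.87-fold). Spi1 (PU.1) was at -0.11 and 1.35 in wild-type cells and at 0.72 and 1.07 in LysM-St18flox cells, so that the genotypes differed mainly at 0 h.

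**Figure D4:**
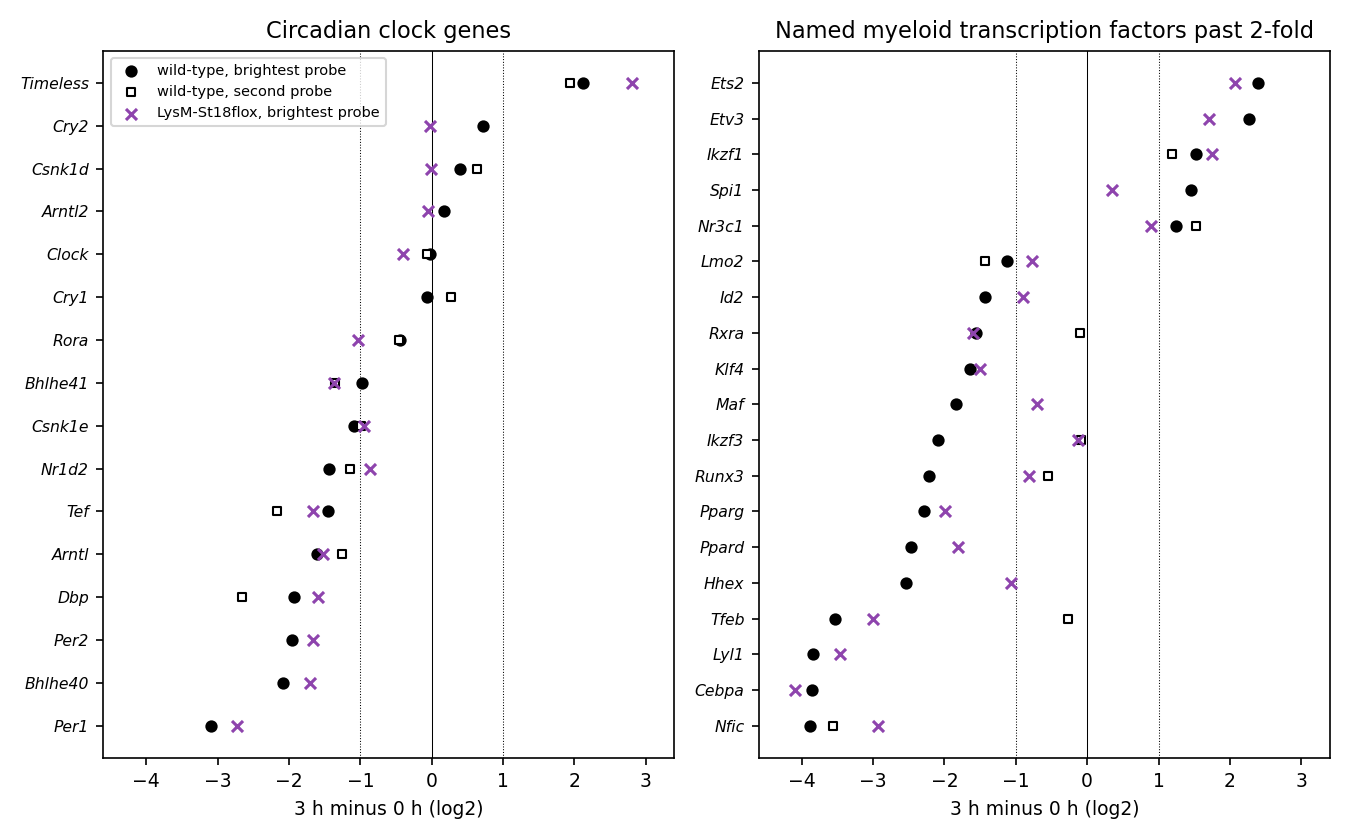
Difference between 3 h and 0 h (log2, x axis) for the measured circadian clock genes (left) and, on the right, the myeloid and other haematopoietic transcription factor genes named here that were past 2-fold. Filled circles are the brightest wild-type probe, open squares the second wild-type probe and crosses the brightest probe in LysM-St18flox cells. Clock genes such as Dbp and Arntl lie below -1 by both probes, while Tfeb, Ikzf3 and Rxra do so by 1 probe only.

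The promoters of Cebpa and Lpin1 are shown as those of the lineage factor Cebpa and of the lower gene with the largest difference shared by 2 probes. Capitals again mark NF-kB type and ISRE type matches. Cebpa lies at chr7:35119043-35119342 (plus strand) and Lpin1 at chr12:16610917-16611216 (minus strand).
Cebpa: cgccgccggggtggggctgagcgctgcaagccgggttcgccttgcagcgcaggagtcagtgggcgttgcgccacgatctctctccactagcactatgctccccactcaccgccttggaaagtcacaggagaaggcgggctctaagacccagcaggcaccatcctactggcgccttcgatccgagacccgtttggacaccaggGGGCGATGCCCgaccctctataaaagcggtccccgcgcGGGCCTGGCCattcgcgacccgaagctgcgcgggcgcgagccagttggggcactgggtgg
Lpin1: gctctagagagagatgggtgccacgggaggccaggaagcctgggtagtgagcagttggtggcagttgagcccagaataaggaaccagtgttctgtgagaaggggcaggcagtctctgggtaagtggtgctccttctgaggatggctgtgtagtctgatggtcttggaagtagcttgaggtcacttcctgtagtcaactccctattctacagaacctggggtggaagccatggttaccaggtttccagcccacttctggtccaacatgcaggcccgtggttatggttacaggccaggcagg
The Cebpa window has NF-kB type matches GGGCGATGCC, its overlap GGCGATGCCC on the opposite strand, and GGGCCTGGCC, and no ISRE type match. The Lpin1 window has no match to any of the motifs searched.

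Genes of growth restraint that FoxO factors induce were lower in 8 and higher in 3 of 32 cases. The sestrin gene Sesn1 was at 3.55 and -0.15 (13-fold lower), Arrdc3 at 1.88 and -1.69 (11.9-fold lower), Foxo3 4.70-fold lower and the retinoblastoma-like gene Rbl2 3.36-fold lower, each on 1 probe. The muscle atrophy ubiquitin ligase gene Fbxo32 and Zfp395 were above background only at 0 h, at least 41.9-fold and 37.0-fold lower. Over the 13 members with 2 probes the medians were -0.02 and 0.17. Of the oxygen-sensing genes, Vegfa was at 3.04 and -0.21 (9.52-fold lower, 2.19-fold by the second probe), Ankrd37 at 2.96 and -1.37 (20.1-fold lower) and Egln3 7.74-fold lower. Hif1a, the oxygen-regulated factor gene itself, was 3.47-fold higher and the glucose transporter gene Slc2a6 5.54-fold (10.7-fold), while the glycolytic genes Ldha (0.22), Pgk1 (0.43), Aldoa (0.13) and Hk2 (0.52) were within 2-fold.

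Signalling through TGF-beta and BMP had its inhibitory Smads on the low side, Smad6 at 0.48 and -3.49 (15.7-fold lower) and Smad7 4.01-fold lower, with Smad2 (0.81), Smad3 (-0.60, second probe -1.21) and Smad4 (-0.093) within 2-fold by the brightest probe. Inhba, which encodes activin A, was 16.5-fold higher. The helix-loop-helix genes Id1 (-1.30) and Id2 (-1.43) were past 2-fold lower.

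Ubiquitin ligase and F-box genes were lower in 20 (33.3%) and higher in 7 (11.7%) of 60 cases, against 11.8% and 8.96% of all genes. Fbxo31 was at 1.73 and -2.31 (16.4-fold lower) and Klhl21 8.91-fold lower on 1 probe each, and beside Klhl24 the genes lower by both probes were Fbxw7 (2.29-fold and 2.43-fold), Rnf167 (2.38-fold and 2.38-fold) and Fbxl4 (2.24-fold and 2.09-fold). Of the 27 members with 2 probes 4 were lower and 3 higher by both. Their medians were -0.26 by the brightest and 0.059 by the second probe, and by the second 6 were higher and 5 lower. DNA repair genes were lower in 11 (20.8%) and higher in 1 (1.89%) of 53 cases. The lower ones included the glycosylase gene Neil2 (6.37-fold), Rad50 (2.42-fold, second probe 2.09-fold) and Fance (2.29-fold, second probe 2.29-fold), while Brca1 had -1.66 and 0.10 by its probes. Over the 20 DNA repair genes with 2 probes the medians were -0.53 and -0.08. Of 38 autophagy genes 7 (18.4%) were lower and 0 higher, against 11.8% and 8.96% of all genes, with Atg4c at -2.13 and Atg14 at -1.64, and none of the 7 had a second probe past 2-fold. Over the 12 with 2 probes the medians were 0.16 and 0.034, and 3 were higher by the second. The DNA methyltransferase gene Dnmt1 was 6.99-fold lower on 1 probe, Dnmt3a had -2.37 and -0.61, and the histone demethylase gene Kdm6b was 3.53-fold and the dioxygenase gene Tet2 4.00-fold higher (3.19-fold by the second probe).

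Cell cycle genes were lower in 12 (21.4%) and higher in 5 (8.93%) of 56 cases, against 11.8% and 8.96% of all genes. Over the 18 with 2 probes the medians were -0.39 and -0.38, and 3 were lower and 3 higher by the second. The lower ones included replication licensing genes, with Gmnn (geminin) 2.99-fold lower and 3.03-fold by the second probe and Cdt1 3.76-fold lower, and the CDK inhibitor gene Cdkn2c 4.18-fold lower. Ccnd2 was the exception among the cyclins, as Ccnd1 (-0.72) and Ccnd3 (-0.40) were within 2-fold. The CDK inhibitor genes Cdkn1a (1.44) and Cdkn1b (-1.14) differed in opposite directions, as in LysM-St18flox cells (2.23 and -1.54).

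Housekeeping groups varied little. All 66 measured cytosolic ribosomal protein genes were within 2-fold, from -0.76 to 0.45 with a median of 0.11, and 41 of 43 oxidative phosphorylation genes were too (median 0.18). Signs this close to 0 depended on the scaling. Quantile normalization gave -0.064 for the ribosomal protein genes, -0.052 for the oxidative phosphorylation genes and -0.22 for the macrophage markers. Of 54 lysosomal genes 49 were within 2-fold, the cathepsin genes Ctsb (0.19), Ctsd (-0.15) and Ctsl (0.28) among them, and all 7 Fc gamma receptor genes, from -0.58 to 0.41. Genes of cholesterol synthesis and its SREBP and LXR regulators were lower in 4 (10.3%) and higher in 1 (2.56%) of 39 cases. Over all genes those shares were 11.8% and 8.96%. Mvd was at -1.54 and Dhcr7 at -1.48. Of 20 measured alternative activation genes 4 were higher, Ccl17 among them, and 3 lower, Pparg among them. Retnla (-0.023), Chil3 (0.56) and Mrc1 (0.044) were within 2-fold.

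The separate LysM-St18flox pair had the same sign for 244 of the 245 genes higher by 2 probes and for 140 of the 141 lower ones measured there. Past 2-fold on that side were 205 of 245 (83.7%) and 102 of 141 (72.3%). Where the second probe had not agreed, those shares were 42 of 103 (40.8%) for higher and 80 of 218 (36.7%) for lower genes, and where only 1 probe was measured 513 of 734 (69.9%) and 591 of 1088 (54.3%). The sign was nonetheless the same for 94 of the 103 and 211 of the 218 genes whose second probe had not agreed. With 1 measured probe it was the same for 659 of 734 and 1016 of 1088. The median differences of genes higher by 2 probes were 1.76 in wild-type and 1.77 in LysM-St18flox cells, and those of genes lower by 2 probes -1.55 and -1.37. Where the second probe did not agree the medians were nearer 2-fold in wild-type cells. They were 1.20 and 0.87 for higher genes and -1.24 and -0.87 for lower genes. Within LysM-St18flox cells the second probe agreed past 2-fold for 439 of 610 genes (72.0%), against 387 of 709 (54.6%) in wild-type cells.

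**Figure D5:**
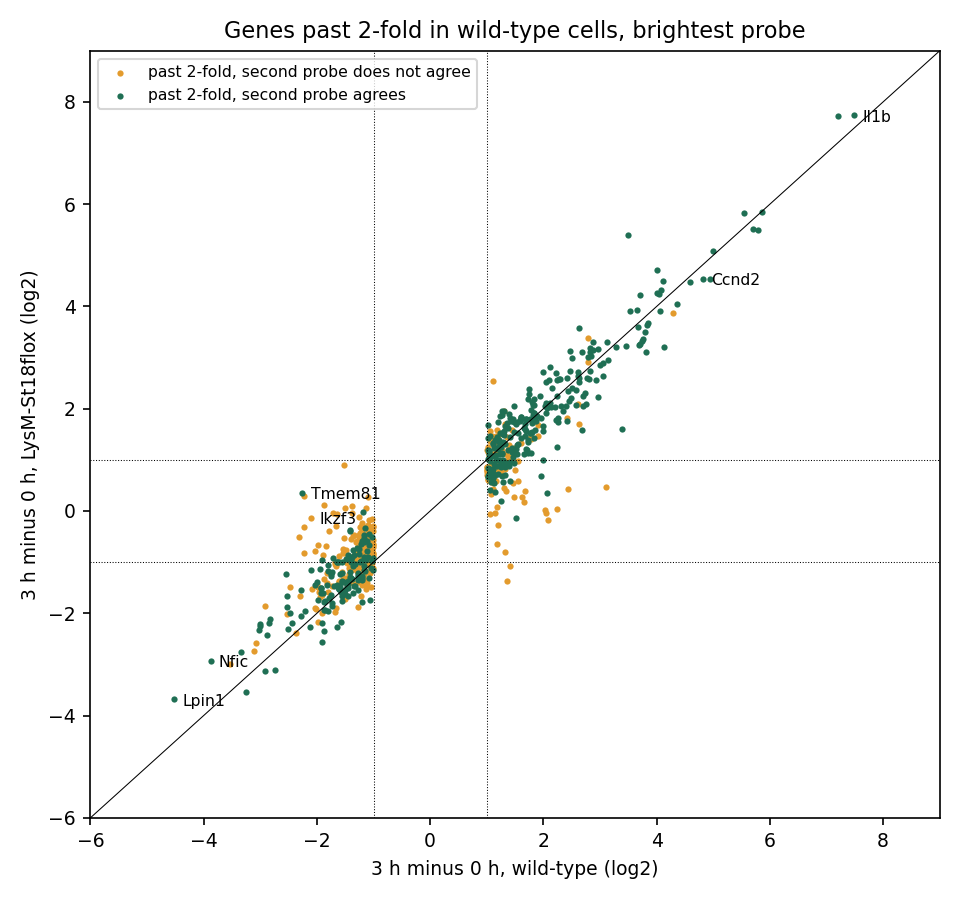
Difference between 3 h and 0 h (log2) in wild-type (x axis) and LysM-St18flox cells (y axis), by the brightest probe, of genes past 2-fold in wild-type cells that had 2 measured probes. Green genes were past 2-fold on the same side by both wild-type probes. Orange genes were those whose second probe was under 2-fold or on the opposite side. Dotted lines mark 2-fold and the solid line equal values. Orange points reach within 2-fold in LysM-St18flox cells more often (36.7% to 40.8% past it) than green ones (72.3% to 83.7%).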

How the data were processed

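RNA of 4 cell samples was read on Agilent 1-colour arrays, 1 array per sample. The deposited intensity values are the processed signals of Agilent Feature Extraction 11.0.1.1, background-corrected by that software per the file headers. The authors also deposited a table of log2 values, whose normalization no header or label states. Its columns each had a median of 9.58 over 25482 probes, its scale matched log2, and it was used as an alternative only.

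Processed signals of probes that were no controls were taken to log2 and set relative to the 75th percentile of their array. Probes flagged well above background on both wild-type arrays were kept, and 0 spots were saturated. Between 52.2% and 55.6% of spots were above background on an array. The number of arrays limits the precision. Probes printed 10 times on an array varied by an SD of 0.03 to 0.04 (log2), which measures the spot only. Gene names came from matching unversioned accessions to the RefSeq table, for 32994 probes. The members and gene lists were chosen with earlier results of these data known. Named genes were the 20 higher and 20 lower ones with the largest differences shared by 2 probes, members of the 62 lists with the largest differences or needed to describe a family, and the largest bounds. Groups came from the sample labels. No test was run, because each group has 1 array. The steps were tested on simulated data whose noise was the SD of probes printed 10 times. All probes of a gene were given the same fold change, so this checks the calculation and not the calls. Alternatives were normexp correction with an offset of 50 (limma 3.58.1 in R 4.3.3), median scaling, quantile normalization, no filter or a stricter filter (above the 25th percentile) on dim probes, other probes of a gene and the deposited table. Tables were handled with Python 3.11.15, numpy 2.4.6 and pandas 2.3.3. Promoters and motifs came from the RefSeq table of build GRCm38.p6. The array headers name another build, so no coordinates were taken from them. Results for some genes are not reported here.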

Additional observations from a re-analysis of the deposited data

Results flagged for a closer look

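Genes named here that were past 2-fold in wild-type cells and had the opposite sign in LysM-St18flox cells numbered 6, and with 1 array in each group the difference was not tested. Pdia4, an endoplasmic reticulum disulfide isomerase gene, was at -3.96 and 1.66 in wild-type cells (5.61) and at 0.70 and 0.37 in LysM-St18flox cells (-0.33). Sdf2l1, of the same compartment, was at -1.15 and 2.63 (3.78) against 2.22 and 1.86 (-0.36). The actin-binding profilin gene Pfn1 was at 1.67 and 3.94 (2.27) against 3.44 and 3.08 (-0.36), and the receptor gene Flt1 at -3.17 and -1.25 (1.91) against -0.52 and -0.89 (-0.37). In these 4 genes the unstimulated wild-type signal was the lowest of the 4 arrays, and each had 1 measured probe. Irf8 was at 4.85 and 3.25 (-1.60) against 4.38 and 4.43 (0.059), and Tmem81 at -0.47 and -2.73 (-2.26) against -1.43 and -1.08 (0.36). Over all measured genes 15 were past 2-fold in opposite directions in the genotypes, and 0 of them had 2 agreeing wild-type probes.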

How the results depend on the processing

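Over the alternatives that used the brightest probe and the background filter, higher genes numbered 915 to 1245 (1129 as reported), lower genes 1023 to 1554 (1483), and genes higher by 2 probes 187 to 268 (245). Without a filter on dim probes 2211 genes were higher and 2807 lower, and 267 were lower by 2 probes. A stricter filter left 80 lower by 2 probes, with fewer genes measured. The second probe gave 585 higher and 374 lower genes, and 485 past 2-fold on the same side in LysM-St18flox cells against 1533, but it exists for 4293 genes only. Higher genes made up 43.2% of those past 2-fold over all 12598 genes, 48.5% with normexp correction, 48.8% with median scaling, 40.6% with quantile normalization, and over the 4293 genes 49.2% by the brightest and 61.0% by the second probe. The median difference of all genes lay between -0.18 and -0.05 under the other scalings and corrections. Of the genes named that were past 2-fold as reported, Ikbkg changed sign with normexp correction (0.018) and Cd80 with the mean of its probes (0.47). With the second probe Cd80 (1.46), Brca1 (0.10) and Map3k14 (0.27) did. Sign changes of named genes within 2-fold were not counted, and Tlr4 (0.35) and Ly96 (0.54) by the second probe are among them. The cause was not tested. With normexp correction a further 19 of the genes named moved by over 0.751 (log2), with differences of Bmf (-2.47), Ccl17 (2.51), Cish (6.84), Cxcl10 (10.56), Cxcl3 (8.12), Dusp14 (1.59), Foxo3 (-1.28), Gbp5 (8.10), Icam1 (5.34), Icosl (2.61), Ifit1 (8.60), Lpin1 (-3.74), Neil2 (-1.72), Pdia4 (4.15), Plat (2.34), Slc7a11 (4.18), Smad6 (-2.96), Tnfsf15 (5.99) and Vcam1 (5.38). That limit is the SD, over 4293 genes, of the gap between the differences given by a gene's brightest and second probe. With the mean of all probes 14 of the genes named moved this far. With the second probe 35 did and 113 did not, and the other 3 are Cd80, Brca1 and Map3k14. The circadian list's median stayed between -1.44 and -0.88, and with the second probe 20 list medians had the other sign than over the full list, partly because fewer members have 2 probes. Over the same members the brightest and second probes gave -0.035 and 0.42 for the TGF-beta list and -0.41 and 0.064 for the oxygen-sensing list. With 1 array in each group, the spread between cultures is unknown, and no alternative could leave out a replicate. No paired analysis was possible because the wild-type comparison has 1 array at each time and the labels give no replicate number that pairs arrays.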

Other observations

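Genes that organize the actin cytoskeleton lay on both sides in wild-type cells, 12 of 50 higher and 9 lower, with a median of 0.0022. The atypical small GTPase gene Rhou was at -0.60 and 2.86 (11-fold higher), beside Rnd1 and Rnd3, and Rhof, a GTPase of filopodia, had a log2 difference of 1.19. The membrane-to-actin linker gene Marcks was 7.59-fold higher and 9.99-fold by the second probe, as its relative Marcksl1 was. Regulators of such GTPases were found in both directions. The activating protein gene Arhgap25 was at 5.31 and 2.45 (7.26-fold lower) and Arhgap45 3.32-fold lower (4.69-fold by the second probe), and the exchange factor genes Arhgef3 and Dock10 were 2.61-fold and 2.39-fold higher (2.32-fold and 2.31-fold). In LysM-St18flox cells 10 of these 50 genes were higher and 4 lower.

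Receptors and enzymes of phagocytosis and matrix turnover had a few large differences among many small ones. Clec4e (Mincle), which recognizes mycobacterial glycolipid, was 20.7-fold higher, the oxidized lipoprotein receptor gene Olr1 7.19-fold (8.59-fold by the second probe) and the scavenger receptor gene Msr1 3.05-fold (5.15-fold), while Mertk, which clears apoptotic cells, was 3.00-fold lower. Of 45 measured genes of this list 35 were within 2-fold. Timp1, a metalloproteinase inhibitor gene, was at 3.01 and 7.04 (16.4-fold higher), Mmp14 10.8-fold higher and Mmp13 8.09-fold. The hyaluronan receptor gene Cd44 was 2.46-fold higher (3.57-fold), and Fut7, which makes selectin ligands, was at 1.51 and -1.89 (10.6-fold lower). The triglyceride synthesis gene Dgat2 was 9.29-fold higher in wild-type cells, and Angptl4, an inhibitor gene of lipoprotein lipase, 4.23-fold lower.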
